A study of Mus musculus with 20 samples.

Results

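The genes described are 10 cytosolic heat shock genes: the inducible HSP70 genes Hspa1a and Hspa1b, the constitutive HSP70 gene Hspa8, the HSP70 cofactors Dnajb1 and Hsph1, and the small heat shock genes Hspb1, Hspb6, Hspb7, Hspb8 and Cryab. They were picked by symbol, and all 10 were found among the 17243 genes listed in both deposited tables of the series. The series holds RNA-seq libraries of 20 hearts, 1 mouse each per the labels, and these fall into 5 groups. At 6 weeks there were 3 Sorbs2 knockout (KO) and 3 wild-type (WT) mice. At 6 months there were 4 KO mice given a vector (KO+AAV), 5 KO mice and 5 WT mice. The vector, AAV9-Tnnt2-Sorbs2, was injected at postnatal day 2. It carries Sorbs2 under the promoter of Tnnt2, which is active in cardiomyocytes, so it is not designed to restore Sorbs2 in other heart cells. Mice of the other groups were untreated, so no group received a vector without Sorbs2. Sorbs2 encodes an adaptor protein of the cardiac Z-disc and the actin cytoskeleton. The labels call the tissue left ventricle and the extraction protocol speaks of ventricular myocardium. They give neither strain nor sex.

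Heat shock proteins are chaperones that bind unfolded or misfolded proteins. HSP70 proteins hold and release clients in an ATP cycle, which J-domain proteins such as DNAJB1 start and nucleotide exchange factors such as HSPH1 (HSP110) complete. Small heat shock proteins form ATP-independent assemblies that keep clients soluble, and in striated muscle several of them sit at the Z-disc and on filamin, titin and desmin. Hspa1a, Hspa1b, Dnajb1, Hsph1 and Hspb1 are classic targets of heat shock factor 1 (HSF1), which binds repeated heat shock elements near gene starts after heat or other proteotoxic stress. In the heart, CRYAB (alpha-B-crystallin), HSPB6, HSPB7 and HSPB8 are abundant without stress, and HSPB8 works with BAG3 in the removal of damaged Z-disc proteins.

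The genes lie on 6 chromosomes of the mouse build GRCm38 (mm10). Hspa1a (chromosome 17, 34969190 to 34972156, minus strand) and Hspa1b (chromosome 17, 34956436 to 34959238, minus strand) are single-exon neighbours. Their transcripts are near copies: 58.8% of the 50-base windows of Hspa1a occur without mismatch in Hspa1b, and 62.3% of those of Hspa1b occur in Hspa1a. Reads could thus be split between both genes, so each comparison was also made on their sum. Hspa8 shares 38.6% of its windows with other annotated genes, chiefly pseudogenes, and Hspb1 shares 48.8% with the pseudogene Hsp25-ps1, so the levels of Hspa8 and Hspb1 are uncertain in the same way. Cryab (chromosome 9, 50751325 to 50756636, plus strand) overlaps the small heat shock gene Hspb2 on the opposite strand over 17% of its exon bases. Hspa1a overlaps Gm20481 on the opposite strand over 19% of its exon bases. The library kit keeps strand, per the series text, but the strand setting of the counting is not stated in those sources that were used.

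Promoters are shown because HSF1 binds near the starts of inducible genes. Their part in the values below was not tested. RefSeq promoters of GRCm38.p6 were matched for 8 of the 10 genes, with 11 starts in all, and Hspa8 and Cryab were not matched. The 250 bases before each start were searched on both strands for a pair of heat shock units, GAANNTTC or TTCNNGAA (which can overlap), and for 3 units in a row, alternating GAA and TTC with NN between them. A pair was found before 5 of the 8 genes (Hspa1a, Hspa1b, Hspb1, Hspb6 and Hsph1), against 12.8% of all 32851 promoters in the table. The first count is by gene with any of its starts and the second is by promoter, so they are not alike. The first also counts both Hspa1a and Hspa1b, whose promoters are near copies. Hspb6 held a pair before its second start only. No promoter of the 8 genes held 3 units, which 0.466% of all promoters do. Hspb7, Hspb8 and Dnajb1 held no pair with these letters in this window, but the bases after either start of Dnajb1 were not found in its annotated transcripts, so its windows may not be those of its transcripts. The promoters of Hspa1a and Hspa1b were identical at 247 of 250 bases (98.8%), and the stretch printed for Hspa1a is also that of Hspa1b. Each sequence is 110 bases long and reads 5′ to 3′ on the strand of its gene, and the capitals mark the units of a pair. Hspa1a is shown at chr17:34972202-34972311 (minus strand), Hspb1 at chr5:135887761-135887870 (plus strand), Hsph1 at chr5:149636316-149636425 (minus strand), Hspb6 before its second start at chr7:30553130-30553239 (plus strand), and Hspb7, as a gene without a pair, at chr4:141420669-141420778 (plus strand).
Hspa1a: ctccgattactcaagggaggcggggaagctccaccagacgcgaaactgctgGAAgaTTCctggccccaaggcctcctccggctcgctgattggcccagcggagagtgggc
Hspb1: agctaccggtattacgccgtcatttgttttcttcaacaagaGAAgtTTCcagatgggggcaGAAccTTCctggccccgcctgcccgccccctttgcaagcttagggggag
Hsph1: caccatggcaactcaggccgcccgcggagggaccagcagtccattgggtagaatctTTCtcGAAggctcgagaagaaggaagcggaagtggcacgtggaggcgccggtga
Hspb6: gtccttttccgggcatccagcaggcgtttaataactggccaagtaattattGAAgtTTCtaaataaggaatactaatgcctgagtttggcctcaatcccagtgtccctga
Hspb7: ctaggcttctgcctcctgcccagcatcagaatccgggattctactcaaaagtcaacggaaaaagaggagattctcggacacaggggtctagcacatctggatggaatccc

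Values are the authors' normalised counts, which are comparable within a table but not between the 6-week and the 6-month table. Their totals per library ranged from 6705133 to 8240294 at 6 weeks and from 11359135 to 13670340 at 6 months. Sorbs2 itself had a mean normalised count of 325 ± 45.3 in KO and 1717 ± 292 in WT hearts at 6 weeks (SD, n = 3 each; exact two-sided permutation p = 0.1, the smallest that 3 against 3 allow). At 6 months it was 11016 ± 6762 in KO+AAV hearts (SD, n = 4), 1020.5 ± 625 in KO hearts and 5040.3 ± 369 in WT hearts (SD, n = 5 each), with an exact two-sided permutation p of 0.00794 for KO+AAV against KO and for KO against WT. In KO 1 and KO 5 it was 1648 and 1755, against 494 to 612 in the other KO hearts at 6 months. In KO+AAV 1 to 4 it was 4696, 5753, 15690 and 17923. Cardiomyocyte markers (10 genes) summed to 370390 to 451163 in KO and 454957 to 671285 in WT hearts at 6 weeks. At 6 months they summed to 1098870 to 1701950 in KO+AAV, 766594 to 1065810 in KO and 1265860 to 1528140 in WT hearts. Atrial markers summed to 121834 to 225584 in KO and 95731.5 to 183312 in WT hearts at 6 weeks, where all 5 passed the filter. At 6 months Myl7, Sln and Bmp10 were under the filter, and the sums were 7752 to 32735 in KO+AAV, 37420 to 126865 in KO and 5916 to 9973 in WT hearts. Of the 2 markers tested there, Nppa had a log2 change of 3.36 and Myl4 one of 0.36 in KO against WT. By the markers that passed the filter, not by the sums, the ventricular label was met less well at 6 weeks. Xist was high in 1 KO and 1 WT library at 6 weeks (KO2 and WT1), and at 6 months in 2 KO+AAV libraries (1 and 3), in no KO library and in 2 WT libraries (4 and 5). In whole tissue, fewer cells of a type and less RNA per cell cannot be told apart.

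Per kilobase of transcript, Cryab was the most abundant of the 10 genes in every group. Its level at 6 months was 28795 ± 3096 normalised counts per kb in KO+AAV (SD, n = 4), 27776 ± 7293 in KO and 26635 ± 5893 in WT hearts (SD, n = 5 each). In WT hearts at 6 months Hspb7 (15905 ± 3210 per kb), Hspa8 (13361 ± 961 per kb) and Hspb6 (11092 ± 1653 per kb) followed, and the ranges of neighbours in this order overlapped. Hspb1 (4537 ± 638 per kb) and Hspb8 (3923 ± 391 per kb) came next. The 4 genes at the lower end were Hsph1 with 401 ± 118, Dnajb1 with 211 ± 131, Hspa1a with 192 ± 181 and Hspa1b with 118 ± 110 per kb, again with overlapping ranges between neighbours. The abundant genes were thus the constitutive HSP70 and the small heat shock genes, and the inducible HSP70 genes, Dnajb1 and Hsph1 were low.

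At 6 weeks the inducible HSP70 genes and their cofactor Dnajb1 were higher in KO3 and KO4 than in every WT heart, but not in KO2. The small heat shock gene Hspb1 was 2.09-fold higher on average in KO hearts, with no overlap. None of the 10 genes passed the test, which asked for an adjusted p under 0.05 in a limma fit over all genes tested. All 10 genes passed the filter on low values. Over all 13242 genes tested at 6 weeks, 0.589% passed, 15.4% had an unadjusted p under 0.05 and 21.2% had groups that did not overlap. Of the 10 genes, 0 passed, 4 had an unadjusted p under 0.05 (Hspa1a, Hspb1, Hspb7 and Dnajb1) and 2 did not overlap (Hspb1 and Hspb7). Their median log2 change was 0.61, against 0.01 over all genes tested.

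Hspa1a, an HSP70 made on stress, had 165, 1318 and 789.6 normalised counts in KO2, KO3 and KO4, against 197, 102 and 121 in WT1, WT6 and WT16. Hspa1b, its near copy, had 88.8, 1290.4 and 523 in the KO hearts and 179, 114 and 146 in the WT hearts. KO3 and KO4 were high for both genes and KO2 lay within or below the WT hearts, so the groups overlapped. The log2 change (KO over WT) was 2.04 for Hspa1a (95% interval 0.76 to 3.32, adjusted p = 0.142) and 1.44 for Hspa1b (95% interval -0.09 to 2.98, adjusted p = 0.353). Single KO hearts decided these results. Without KO3 the log2 changes were 1.42 (adjusted p = 0.439) and 0.58 (adjusted p = 0.768), while without KO2 the log2 changes were 2.91 (adjusted p = 0.000515) and 2.51 (adjusted p = 0.00425), and that of the sum of both genes was 2.73 (adjusted p = 0.00101), against 1.77 (adjusted p = 0.218) with all hearts. KO2 is also the KO heart with high Xist. Each group held 1 library with high Xist and 2 with Y-linked expression, so a covariate for this class cannot move the log2 change.

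Dnajb1, the J-domain partner of HSP70, had 228, 445 and 386 normalised counts in KO2, KO3 and KO4 and 229, 199 and 218 in the WT hearts. Hsph1, the HSP110 that exchanges nucleotides on HSP70, had 262, 1365 and 417 in the KO hearts and 415, 261 and 343 in the WT hearts. Both again had their highest value in KO3 and a KO2 value among those of WT. The log2 changes were 0.66 for Dnajb1 (95% interval 0.11 to 1.21, adjusted p = 0.241) and 0.67 for Hsph1 (95% interval -0.35 to 1.69, adjusted p = 0.523). For Hsph1 the difference rested on KO3, and without it the change was -0.01. Hspa8, the constitutive HSP70, had 9135, 16107 and 10489 in KO2, KO3 and KO4 against 10975, 8850.4 and 9151 in the WT hearts, a log2 change of 0.27 (95% interval -0.33 to 0.86).

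Among the small heat shock genes, Hspb1 (HSP25 in mouse, an actin-stabilising chaperone) had 5952, 5673 and 3807 normalised counts in KO2, KO3 and KO4 and 2827, 3056 and 1503 in WT1, WT6 and WT16. All 3 KO hearts lay above all WT hearts, and KO2 was the highest of them, unlike for the HSP70 genes. The log2 change was 1.10 ± 0.29 (SE, 95% interval 0.46 to 1.74) with an adjusted p of 0.114. Hspb7, a filamin-binding chaperone of muscle, had 10666, 8394 and 7398 in the KO hearts and 6135, 7178 and 4687 in the WT hearts. Its groups did not overlap either, and the log2 change was 0.56 (95% interval 0.02 to 1.10, adjusted p = 0.306). The other 3 overlapped and had log2 changes of 0.38 for Hspb6 (95% interval -0.16 to 0.93), -0.19 for Hspb8 (95% interval -0.65 to 0.26) and -0.06 for Cryab (95% interval -0.63 to 0.51), the last of which changed sign when libraries were scaled to equal totals (0.03) or quantile-normalised (0.06). Summed cardiomyocyte markers were lower in every KO heart than in every WT heart at this age, as given above. Fibroblast markers summed to 41389 to 47585 in KO and 31774 to 38461 in WT hearts (8 of 10 with a positive log2 change). Endothelial markers summed to 16835 to 22192 in KO and 11486 to 14517 in WT hearts (7 of 10 positive). Macrophage and smooth muscle sums overlapped. The part of these cell types in the values was not tested.

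**Figure D1:**
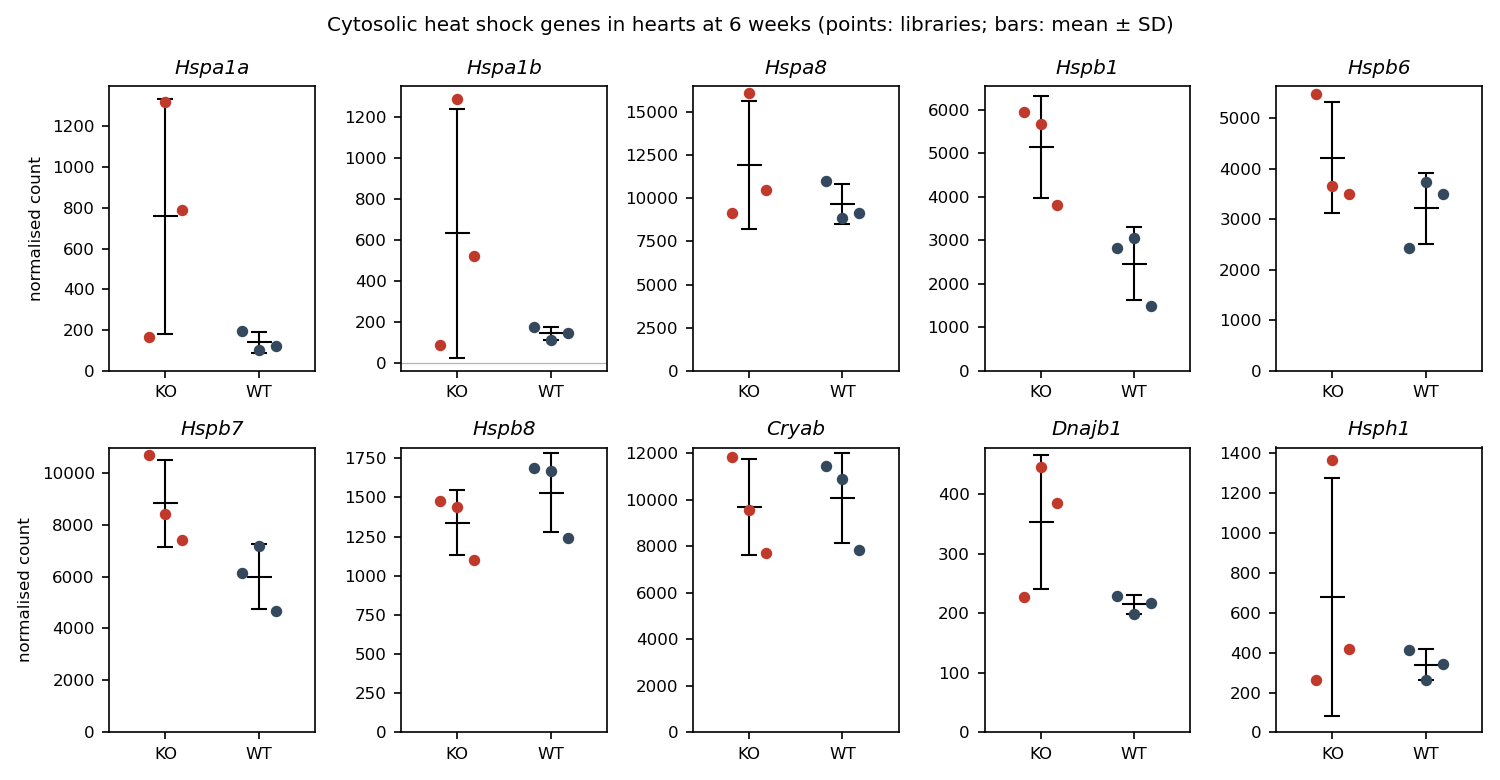
Normalised counts (vertical axes, linear, each gene on its own scale) of the 10 genes in 3 KO (left) and 3 WT hearts (right) at 6 weeks. Points are libraries and bars are mean ± SD. Hspb1 and Hspb7 do not overlap between groups, and the KO spread of Hspa1a, Hspa1b and Hsph1 comes from 1 or 2 high hearts.

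At 6 months the inducible HSP70 genes had their highest means in KO hearts and their lowest in KO+AAV hearts, but the hearts of a group differed by more than the groups did. None of the 10 genes passed the limma test in KO+AAV against KO, KO+AAV against WT or KO against WT, and all 10 had passed the filter. Of the 10 genes 0 passed in KO+AAV against KO, against 11.2% of the 13419 genes tested (5.55% higher and 5.69% lower). There 4 had an unadjusted p under 0.05 (Hspa1a, Hspa1b, Hspb7 and Hsph1), against 29.6% of all genes, and 1 did not overlap (Hspb7), against 14.1%. In KO+AAV against WT, 0 of 10 passed, against 1.33% of all genes, 1 had an unadjusted p under 0.05 (Hsph1), against 18.3%, and 1 did not overlap (Hspa8), against 5.4%. In KO against WT, 0 of 10 passed, against 16.3% of all genes (8.13% higher and 8.18% lower), 0 had an unadjusted p under 0.05, against 28.7%, and 0 did not overlap, against 13.8%. The median log2 change of the 10 genes was -0.35 in KO+AAV against KO, -0.21 in KO+AAV against WT and 0.18 in KO against WT, while that of all genes was 0.00 in each. The comparisons share groups and are not independent of one another.

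Hspa1a had 434, 457, 144 and 85.5 normalised counts in the KO+AAV hearts 1 to 4, then 772, 601, 273, 7574 and 1312 in the KO hearts 1 to 5, and 139, 478, 456, 1499.5 and 273 in the WT hearts 1 to 5. Hspa1b had 317, 179.6, 57.7 and 55.2 in KO+AAV, 355, 359, 213, 6982 and 859 in KO, and 55.6, 302, 329, 841 and 121 in WT. KO 4 stood far above the other hearts for both genes and WT 4 was the highest WT heart. KO+AAV 3 and 4 were among the lowest of all. They also had more Sorbs2 mRNA (15690 and 17923) than KO+AAV 1 and 2 (4696 and 5753), and the part of this was not tested. All groups overlapped. Across the 14 hearts the highest value was 88.6 times the lowest for Hspa1a and 126.5 times the lowest for Hspa1b.

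The log2 change in KO+AAV against KO was -2.23 for Hspa1a (95% interval -3.99 to -0.47, adjusted p = 0.0922), -2.57 for Hspa1b (95% interval -4.54 to -0.60, adjusted p = 0.0829) and -2.36 for their sum (adjusted p = 0.0866). In KO against WT it was 1.33 for Hspa1a (95% interval -0.33 to 2.99, adjusted p = 0.288), 1.63 for Hspa1b (95% interval -0.22 to 3.49, adjusted p = 0.239) and 1.45 for the sum (adjusted p = 0.265). In KO+AAV against WT it was -0.90 for Hspa1a (95% interval -2.66 to 0.86) and -0.94 for Hspa1b (95% interval -2.91 to 1.03). Without KO 4 the values in KO against WT were 0.62 and 0.80, and in KO+AAV against KO they were -1.52 (adjusted p = 0.181) and -1.74 (adjusted p = 0.158) in the same order of genes. Immediate early genes (10 genes, Fos and Egr1 among them), which respond quickly to many stimuli, summed to 4578 and 5533 in KO+AAV 3 and 4, against 15020 to 62912 in the other 12 hearts. WT 4 was the highest of these and KO 4 had 23618. The part of this difference in the HSP70 values was not tested.

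Dnajb1 had 317, 451, 351 and 289 normalised counts in KO+AAV, 308, 346, 342, 1448 and 316 in KO, and 363, 495, 443, 1326 and 538 in WT. KO 4 and WT 4, the hearts with the most Hspa1a, stood apart and the other 12 hearts lay between 289 and 538. The log2 change was -0.35 in KO+AAV against KO (95% interval -1.25 to 0.56), -0.70 in KO+AAV against WT (95% interval -1.60 to 0.21) and -0.35 in KO against WT (95% interval -1.20 to 0.50), none passing the test. Without KO 4 it was 0.08 in KO+AAV against KO and -0.78 in KO against WT (adjusted p = 0.0824).

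Hsph1 had 449, 1026, 1197 and 1236 normalised counts in KO+AAV, 1357, 1431, 1221, 1405 and 1712 in KO, and 1827, 1916, 1808, 1012 and 1065 in WT. KO+AAV 1 was the lowest heart, and WT 4 and WT 5, the WT hearts with high Xist, were clearly below the other 3 WT hearts. The log2 change was -0.64 in KO+AAV against KO (95% interval -1.23 to -0.05, adjusted p = 0.138), -0.69 in KO+AAV against WT (95% interval -1.28 to -0.11, adjusted p = 0.219) and -0.05 in KO against WT (95% interval -0.60 to 0.50), where it was 0.11 with libraries scaled to equal totals and 0.03 after quantile normalisation. Without KO+AAV 1 the first of these was -0.30, and with the Xist or Y-linked class as a covariate it was -0.27.

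At 6 months Hspa8 was among the genes that varied least between hearts. Hspa8 had 35663, 37069.8, 35235 and 35046 normalised counts in KO+AAV, 36431, 31271, 28489, 35026 and 38253 in KO, and 29443, 29774, 32416, 33791 and 34509 in WT. Every KO+AAV heart lay above every WT heart, by a small margin. The log2 change was 0.08 in KO+AAV against KO (95% interval -0.23 to 0.40), 0.16 in KO+AAV against WT (95% interval -0.15 to 0.48) and 0.08 in KO against WT (95% interval -0.22 to 0.37).

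**Figure D2:**
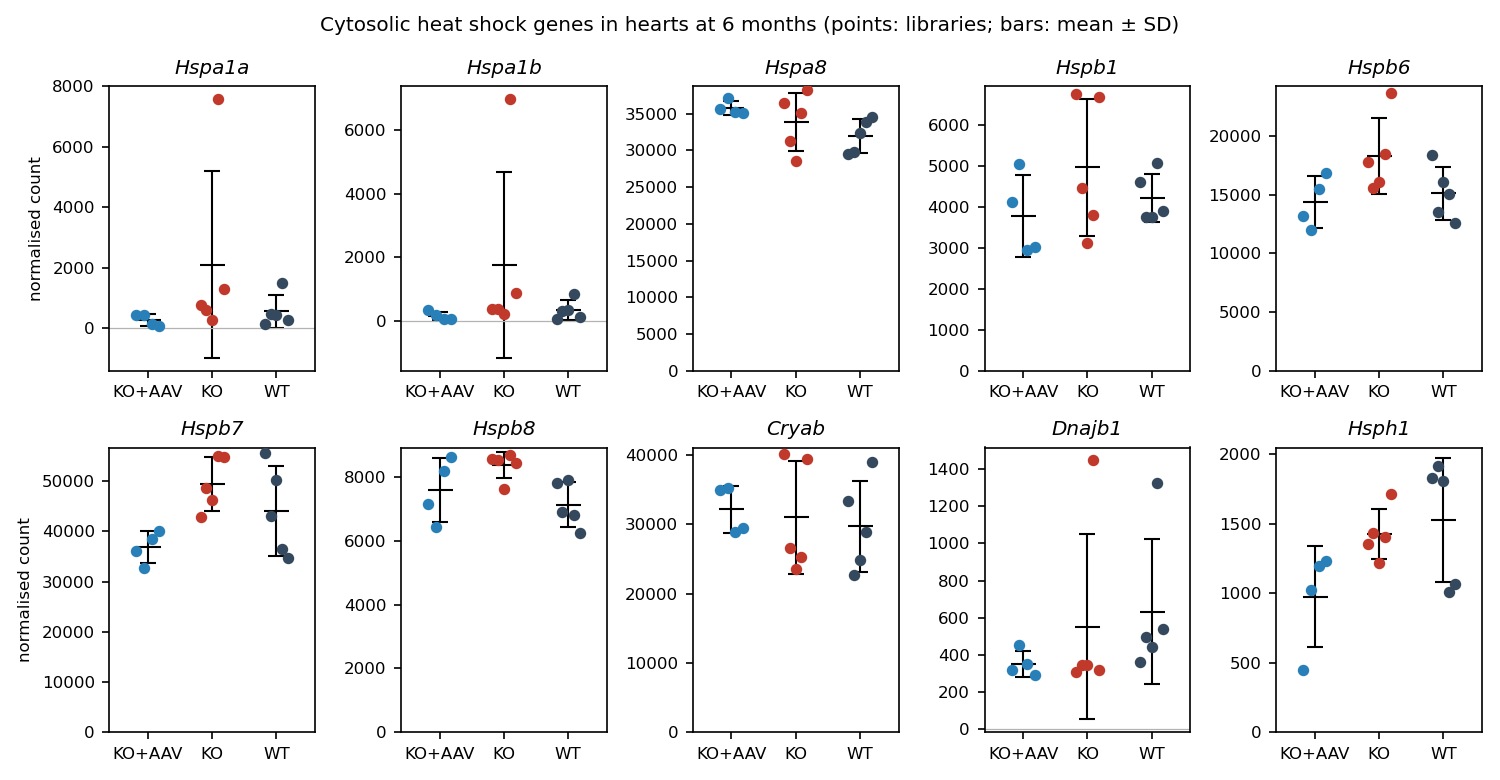
Normalised counts (vertical axes, linear, each gene on its own scale) of the 10 genes in 4 KO+AAV, 5 KO and 5 WT hearts at 6 months, from left to right. Points are libraries and bars are mean ± SD. One KO heart at 7574 (Hspa1a) and 6982 (Hspa1b) widens the KO spread, while Hspa8 and Hspb8 vary little in any group.

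Of the small heat shock genes, Hspb7 had 36087, 32735, 38458 and 40063 normalised counts in KO+AAV, 42791, 48701, 46152, 54936 and 54790 in KO, and 55552, 43092, 50313, 36495 and 34753 in WT. Every KO+AAV heart was below every KO heart, and the WT hearts overlapped both groups. The log2 change was -0.42 in KO+AAV against KO (95% interval -0.81 to -0.04, adjusted p = 0.135), -0.24 in KO+AAV against WT (95% interval -0.62 to 0.15) and 0.18 in KO against WT (95% interval -0.18 to 0.55).

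Hspb6 (HSP20, a small heat shock protein phosphorylated by protein kinase A) had 13161, 11983, 15489 and 16866 in KO+AAV, 17772, 15573, 16064, 18453 and 23660 in KO, and 18336, 13540.2, 16104, 15042 and 12571 in WT. KO 5 was the highest heart and the groups overlapped. Its log2 change was -0.35 in KO+AAV against KO (95% interval -0.70 to 0.01, adjusted p = 0.183), -0.07 in KO+AAV against WT (0.005 with equal totals and 0.03 after quantile normalisation) and 0.27 in KO against WT (95% interval -0.07 to 0.61, adjusted p = 0.288). After quantile normalisation it passed the test in KO+AAV against KO (-0.50, adjusted p = 0.0489) and in KO against WT (0.54, adjusted p = 0.0227).

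Hspb8, the partner of BAG3, had 7144, 6409, 8179 and 8601 in KO+AAV, 8557, 8534, 7624, 8661 and 8435 in KO, and 7801, 6879, 7908, 6791 and 6242 in WT. Only KO 3 was within the WT range, and the other 4 KO hearts lay above it. The log2 change was -0.15 in KO+AAV against KO (95% interval -0.42 to 0.12), 0.09 in KO+AAV against WT (95% interval -0.18 to 0.36) and 0.24 in KO against WT (95% interval -0.02 to 0.49, adjusted p = 0.212). This last value passed when libraries were scaled to equal totals (0.39, adjusted p = 0.0379), which shifts the median of all genes by 0.16, and after quantile normalisation (0.51, adjusted p = 0.00623), which shifts it by -0.01.

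Hspb1 and Cryab shared a pattern within the KO group. Hspb1 had 4120.4, 5042, 2945 and 3032 in KO+AAV, 6759, 4475, 3120.4, 3799 and 6691 in KO, and 4615, 3755, 3762, 5069 and 3893 in WT. Cryab, whose protein binds desmin and titin, had 35004, 35295, 28869.9 and 29488.5 in KO+AAV, 40227, 26548, 23509, 25338 and 39506 in KO, and 33379, 22660.3, 24848, 28894 and 38976 in WT. KO 1 and KO 5, the KO hearts with more Sorbs2 mRNA, were the highest for both genes in their group, and Hspb2, the neighbour that overlaps Cryab, was also highest there (1299 and 1156, against 685 to 836 in the other KO hearts). The part of the overlap in this was not tested. In the KO+AAV group the order was the other way. Hearts 3 and 4, with more Sorbs2 mRNA (15690 and 17923), were lower for Hspb1 and Cryab than hearts 1 and 2 (4696 and 5753).

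Neither gene passed in any comparison. The log2 change of Hspb1 was -0.36 in KO+AAV against KO (95% interval -0.85 to 0.13), -0.18 in KO+AAV against WT (95% interval -0.67 to 0.31) and 0.18 in KO against WT (95% interval -0.28 to 0.64). That of Cryab was 0.08 in KO+AAV against KO (95% interval -0.37 to 0.54), 0.13 in KO+AAV against WT (95% interval -0.32 to 0.59) and 0.05 in KO against WT (95% interval -0.38 to 0.48). Without KO 1 and KO 5 together the values in KO against WT were -0.16 for Hspb1 and -0.22 for Cryab. For the 5 small heat shock genes the upper ends of the intervals in KO against WT were at most 0.64.

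**Figure D3:**
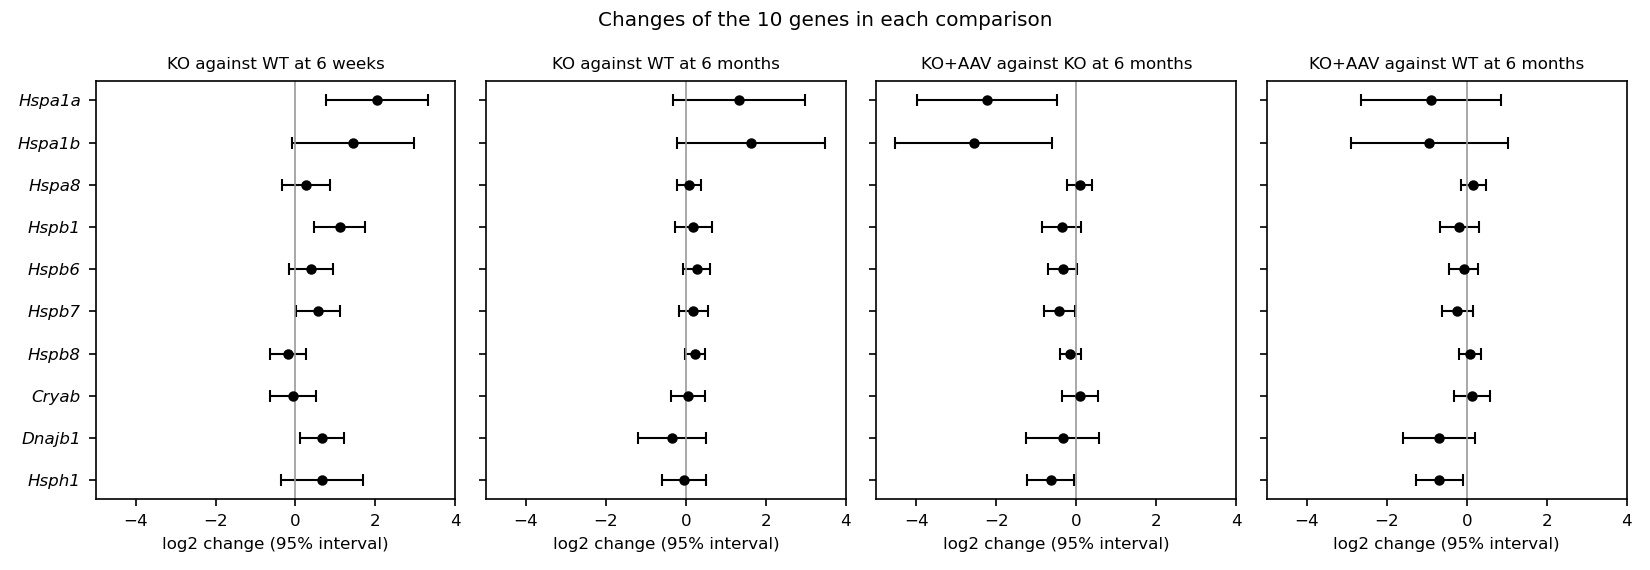
Log2 change (points) with 95% interval (bars) of the 10 genes in the 4 comparisons, each panel with the group named first over the other. Intervals of Hspa1a and Hspa1b are several times wider than those of Hspa8 and Hspb8, and no change passed an adjusted p of 0.05.

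The knockout effect was compared between ages as the difference of the log2 changes, 6 months minus 6 weeks. Of the 10 genes 0 passed, 2 had an unadjusted p under 0.05 (Hspb1 and Dnajb1), and over all 12709 genes 4.08% passed and 17.9% had an unadjusted p under 0.05. For Hspb1 the changes were 0.18 at 6 months and 1.10 at 6 weeks, a difference of -0.92 (95% interval -1.68 to -0.17, adjusted p = 0.169). For Dnajb1 they were -0.35 and 0.66, a difference of -1.01 (95% interval -1.98 to -0.04, adjusted p = 0.257), and without KO 4 of the 6-month hearts the difference was -1.44 with an adjusted p of 0.0304. For Hspa1a and Hspa1b the differences were -0.71 (95% interval -2.71 to 1.29) and 0.19 (95% interval -2.11 to 2.49).

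Among the genes described, the inducible HSP70 genes Hspa1a and Hspa1b had the largest spread between hearts of the same group at both ages. Inducible and constitutive genes were not separated as classes. The inducible Hspb1 lay near Cryab at 6 months, and Dnajb1 lay near Hspa8 at 6 weeks. At 6 months the pooled within-group SD on the log2 scale was 1.46 for Hspa1a and 1.63 for Hspa1b, larger than that of 99.3% and 99.5% of the genes tested, and 0.74 for Dnajb1, larger than that of 92% of them. Over all genes its median was 0.32. It was 0.12 for Hspa8 and 0.14 for Hspb8, where only 2.16% and 4.45% of genes were lower. Hsph1 (0.46), Hspb1 (0.38) and Cryab (0.30) lay nearer the median, and Hspb6 and Hspb7 were at 0.23 and 0.21. At 6 weeks the order was similar for the HSP70 genes (1.15 for Hspa1a, 1.40 for Hspa1b), with Hsph1 at 0.90, Dnajb1 at 0.37 and Hspa8 at 0.32 beside a median of 0.31. The small heat shock genes were then at 0.47 (Hspb1), 0.35 (Hspb6), 0.30 (Cryab), 0.29 (Hspb7) and 0.24 (Hspb8). The precision of the tests above follows this spread: the standard error of the log2 change in KO against WT at 6 months was 0.87 for Hspa1b and 0.12 for Hspb8.

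Which genes varied together was described by Pearson's r of their log2 values over the 14 hearts at 6 months after removal of group means. Such hearts share one dissection and library each, so r is given as a description with no p. Hspa1a and Hspa1b had r = 0.97, and each went with Dnajb1 (0.83 and 0.81). Reads could be split between Hspa1a and Hspa1b, as given above, so their r values are not separate results. The part of shared reads in them was not tested. KO 4 and WT 4 lay furthest above their group means for Hspa1a (2.85 and 1.85) and Dnajb1 (1.71 and 1.23), and r without them was not computed. Among 9467 genes with a mean of at least 100, the 3 most like Hspa1a were Hspa1b, Ier5 (r = 0.86), an immediate early gene, and Dnajb1. Those most like Hspa1b were Hspa1a, Bbs2 (0.85) and Ier5 (0.83), and those most like Dnajb1 were Hspa1a, Hspa1b and Fam161b (0.78). Hsph1, the other HSP70 cofactor, did not go with Hspa1a, Hspa1b or Dnajb1 (r = -0.30 with Hspa1a). Its nearest genes were Becn1 (0.95), an autophagy gene, Ankrd23 (0.95), which encodes a titin-binding ankyrin repeat protein, and Mllt11 (0.95).

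Of the small heat shock genes, Hspb6, Hspb7 and Hspb8 varied together. Their r was 0.73 for Hspb6 with Hspb7, 0.745 for Hspb6 with Hspb8 and 0.76 for Hspb7 with Hspb8. Cryab did not go with them (0.155, -0.264 and -0.221 in the order Hspb6, Hspb7 and Hspb8), nor did Hspb1 (0.138, -0.199 and -0.208). Hsph1 did so less strongly (0.477, 0.564 and 0.544 in the same order). Hspb1 went with Cryab (0.76) and Hspa8 with both (0.65 with Hspb1 and 0.675 with Cryab). For each of these small heat shock genes and Hspa8, the most alike genes, given next, had higher r. The share of all genes that reach such r was not computed. The genes most like Hspb7 were Prob1 (0.96), Dnajc14 (0.92) and Kank2 (0.92). Those most like Cryab were Serf2 (0.97), Nhp2 (0.97) and Snf8 (0.96), and those most like Hspb1 were Pmm1 (0.945), Tmem53 (0.91) and Ccdc181 (0.91). For Hspb6 they were Creld1 (0.85), Mfge8 (0.84) and Foxo4 (0.84), for Hspb8 Sms, Clcc1 and Rfk (0.90 each) and for Hspa8 Crebzf (0.92), Crispld2 (0.89) and Klc1 (0.88).

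**Figure D4:**
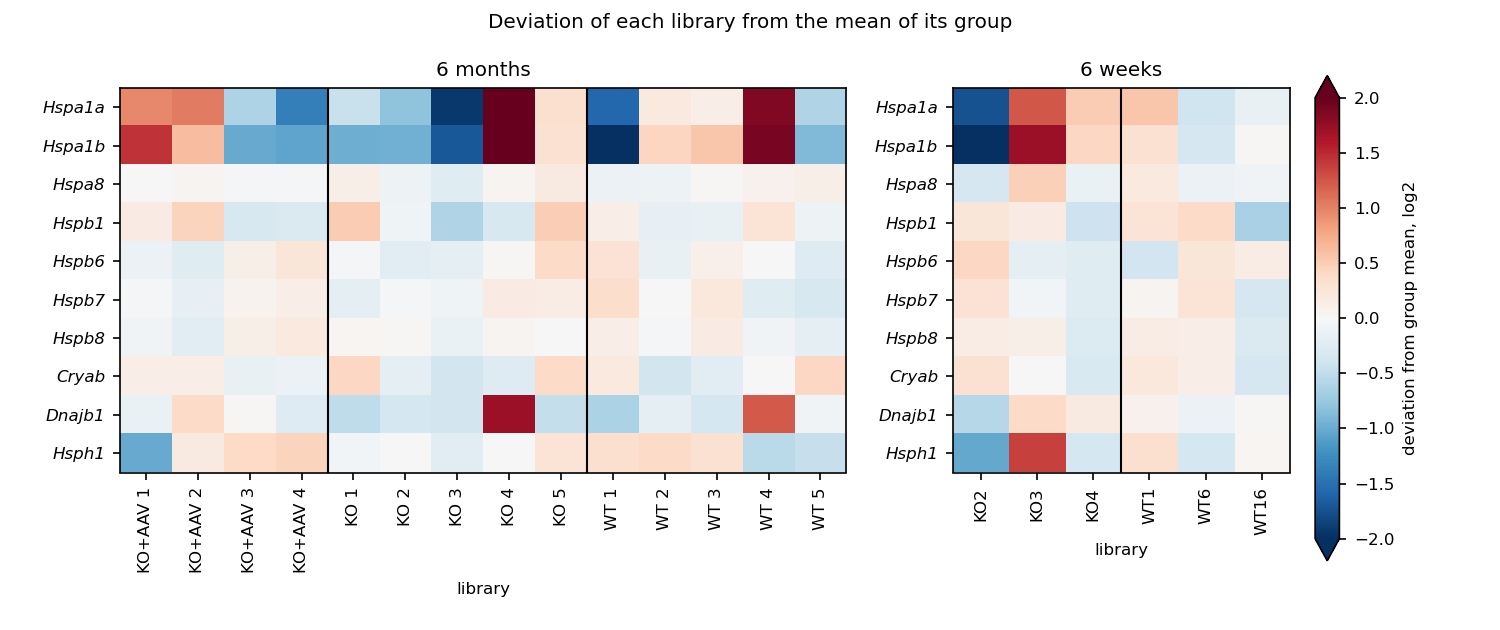
Deviation of each library (columns) from the mean of its group on the log2 scale (colour, red above and blue below, cut at 2) for the 10 genes (rows) at 6 months (left) and 6 weeks (right), with black lines between groups. Hspa1a, Hspa1b and Dnajb1 are all high in KO 4 and WT 4 at 6 months and in KO3 at 6 weeks.

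Around these 10 genes, other chaperone genes passed the test. Hspa1l, the third HSP70 gene of the chromosome 17 cluster (34972703 to 34979285, plus strand), had 158, 288, 303 and 227 normalised counts in KO+AAV, 522, 602, 457, 954 and 720.4 in KO, and 258, 248, 274, 191 and 108 in WT. Every KO heart was above every KO+AAV and every WT heart. It rose by 1.61 ± 0.26 (log2, SE) in KO against WT (adjusted p = 0.000668) and fell by 1.41 in KO+AAV against KO (log2 change -1.41 ± 0.28, adjusted p = 0.00597), and both calls held in all 27 alternatives. At 6 weeks its log2 change was 0.02, and the effect differed between ages (difference 1.59, adjusted p = 0.00975). Hspa1l shares 9.57% of its 50-base windows with Hspa1a, and 71.9% of its exon bases overlap the antisense gene Gm10501, so its counts are uncertain if strand was not used. KO 4, the heart with the most Hspa1a, was also its highest. Hspa2, another HSP70, was the only other gene of the 7 in its list to pass anywhere: it had 137, 147 and 192 in KO and 45.6, 39.6 and 81.8 in WT hearts at 6 weeks and rose by 1.55 (log2, adjusted p = 0.047). That call was lost without WT1 (adjusted p = 0.0942), WT6 (0.201), KO3 (0.198) or KO4 (0.203), and with no filter (0.0678), equal totals (0.0826) or no mean-variance trend (0.156), and the difference between ages was -1.40 (adjusted p = 0.0273).

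The lists were put together with earlier results of these data known and are described by counts and medians. The chaperone-assisted selective autophagy list is named after the pathway that clears damaged filamin at the Z-disc. It holds Bag3, Stub1, Synpo2, Sqstm1 and Map1lc3b. Also in it are Flnc, a client, and Synpo2l, so its counts are not those of the clearing machinery alone. In KO against WT at 6 months 2 of its 7 genes rose (Synpo2l and Flnc) and 0 fell (median log2 change 0.08). Over all genes 8.13% rose and 8.18% fell (median 0.00). Bag3, Stub1, Synpo2, Sqstm1 and Map1lc3b did not pass there (log2 changes -0.02, -0.43, 1.13, 0.08 and -0.30). With the vector, 1 rose and 3 fell in KO+AAV against KO (median -0.51), while over all genes 5.55% rose and 5.69% fell. The gene that rose was Stub1 (0.54, adjusted p = 0.0484), a call lost in 15 of 27 alternatives. Synpo2l, which encodes a Z-disc protein, had 719, 1427, 2914 and 2053 normalised counts in KO+AAV, 6047, 9063, 8172, 11505 and 12314 in KO, and 2185, 1975, 2151, 1222 and 774 in WT. Every KO heart exceeded every other heart. It fell in KO+AAV against KO (log2 change -2.54, adjusted p = 0.00114) and rose by 2.56 in KO against WT (adjusted p = 0.000174), in all 27 alternatives. Flnc, filamin C, a client of this pathway, fell in KO+AAV against KO (-0.95, adjusted p = 0.00835) and rose in KO against WT (0.76, adjusted p = 0.0127), calls lost only in the libraries with Y-linked expression alone (adjusted p = 0.0567 and 0.0831). Synpo2 (myopodin), a partner of BAG3, fell in KO+AAV against KO (-1.86, adjusted p = 0.0176), but not past the threshold without KO+AAV 1 (-1.61, adjusted p = 0.0794), with the Xist or Y-linked class as a covariate (-1.36, adjusted p = 0.102) or in Y-linked libraries alone (-1.72, adjusted p = 0.0579). Bag3 itself had log2 changes of -0.51 in KO+AAV against KO (adjusted p = 0.0949), -0.52 in KO+AAV against WT (adjusted p = 0.183) and -0.02 in KO against WT, none of which passed. At 6 weeks no gene of this list passed, with Synpo2l at 1.20 (adjusted p = 0.0783).

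HSP90 and its co-chaperones had 0 genes higher and 4 lower of 15 in KO against WT at 6 months (median -0.13), where 8.13% of all genes rose and 8.18% fell, and 1 higher and 0 lower in KO+AAV against KO (median -0.13), where 5.55% rose and 5.69% fell. Fkbp4, an immunophilin of steroid receptor complexes, had 6346, 5039.97, 5776 and 7077 normalised counts in KO+AAV, 2999, 4618, 4786, 3109 and 3269 in KO, and 8201, 5617, 5534, 5298 and 5723 in WT. All KO hearts were below all others. It rose in KO+AAV against KO (log2 change 0.71, adjusted p = 0.0205) and fell in KO against WT (-0.70, adjusted p = 0.00979), but the rise was lost in 6 of 27 alternatives: without KO 4 (adjusted p = 0.052), KO 5 (0.0547), KO+AAV 1 (0.0718) or KO 1 and KO 5 together (0.0702), with the Xist or Y-linked class as a covariate (0.0523) and in Y-linked libraries alone (0.167). The fall was lost without KO 1 and KO 5 together (adjusted p = 0.0799). Cdc37, which loads kinases on HSP90, fell in KO against WT (-0.43, adjusted p = 0.0109), a call lost with equal totals (-0.28, adjusted p = 0.0961). Unc45b fell there as well (-0.44, adjusted p = 0.0292), a call lost in 9 of 27 alternatives. The HSP90 genes themselves did not pass: Hsp90aa1, the inducible form, had log2 changes of -0.67 in KO+AAV against KO (adjusted p = 0.0762) and 0.42 in KO against WT (adjusted p = 0.234), and Hsp90ab1, the constitutive form, had -0.08 and -0.03.

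Of 13 other J-domain genes 1 rose and 2 fell in KO+AAV against KO (median -0.18; 5.55% and 5.69% of all genes), and 0 rose and 1 fell in KO against WT (median -0.21; 8.13% and 8.18% of all genes). Dnaja4, a heat-inducible J-domain gene of muscle, had 1627, 1847, 2169 and 2187 normalised counts in KO+AAV and 3220.1, 3293, 2782, 3496 and 3586 in KO hearts, against 2762, 2889.9, 2642, 2562 and 1919 in WT hearts. The KO+AAV hearts were all below the KO hearts and it fell there (-0.75, adjusted p = 0.00447, in all 27 alternatives). Dnajb4 fell as well (-0.98, adjusted p = 0.0165), a call lost in 3 of 27 alternatives: without KO+AAV 1 (-0.86, adjusted p = 0.0738), with the Xist or Y-linked class as a covariate (-0.74, adjusted p = 0.0986) and in Y-linked libraries alone (-0.83, adjusted p = 0.103). The gene that rose in KO+AAV against KO was Dnajc7 (0.42, adjusted p = 0.0259), a call lost in 8 of 27 alternatives. In KO against WT Dnajb2 fell (-0.38, adjusted p = 0.0219), a call lost in 6 of 27 alternatives.

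Mitochondrial chaperones, which serve a separate compartment, had 0 genes higher and 4 lower of 7 in KO against WT at 6 months, with a median log2 change of -0.55, while 8.18% of all genes fell. Cardiomyocyte markers were lower as well (3 of 10 fell, median -0.57), and their part in this was not tested. Trap1, the mitochondrial HSP90, fell by 0.62 on the log2 scale (adjusted p = 0.0125, lost without KO 1 and KO 5 together at 0.104), and Grpel1 and Hspe1 fell by 0.64 and 0.43, calls that were lost with libraries scaled to equal totals (adjusted p = 0.085 and 0.135) and without WT 1 (0.0636 and 0.0601). The call of Grpel1 was also lost without KO 1 (adjusted p = 0.0525), KO 5 (0.0584) or both (0.123) and in Y-linked libraries alone (0.0509). That of Hspe1 was also lost without KO 4 (adjusted p = 0.0558), after quantile normalisation (0.0728), with the Xist or Y-linked class as a covariate (0.0611) and in Y-linked libraries alone (0.115). Of the 7, 1 rose in KO+AAV against KO (Hspe1, 0.47, adjusted p = 0.0261, lost without KO 2, KO 3, KO 4 or KO+AAV 1, with adjusted p of 0.0548, 0.057, 0.0646 and 0.0992, with equal totals at 0.0588, with the Xist or Y-linked class as a covariate at 0.113 and in Y-linked libraries alone at 0.217). In that comparison 5.55% of all genes rose.

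Of 22 HSF1 target genes, 7 are among the 10 genes and 19 are also in another of these lists. In KO+AAV against KO 2 rose and 0 fell (Fkbp4 and Hspe1; median -0.21), against 5.55% and 5.69% of all genes. In KO against WT at 6 months 1 rose and 2 fell (again Fkbp4 and Hspe1, median -0.04), against 8.13% and 8.18% of all genes. At 6 weeks 0 passed, against 0.589% of all genes, and 4 had an unadjusted p under 0.05, against 15.4% (median 0.31). The gene that rose in KO against WT was Serpinh1 (HSP47, the collagen chaperone; 0.54, adjusted p = 0.0177, lost at 0.0561 without KO 5, 0.132 without KO 1 and KO 5 and 0.0664 in Y-linked libraries alone). Beside it, 6 of 10 fibroblast markers rose in the same comparison, and their part in its value was not tested. Hsf1 itself had log2 changes of 0.01 at 6 weeks and -0.10 at 6 months in KO against WT and 0.14 in KO+AAV against KO, none passing. Of 10 endoplasmic reticulum chaperones 0 rose and 1 fell in KO against WT at 6 months, where 8.18% of all genes fell. It was Hspa5, the BiP gene (-0.52, adjusted p = 0.0266), a call lost in 8 of 27 alternatives, among them quantile normalisation (adjusted p = 0.245) and those without WT 2 (0.0605), WT 4 (0.0664), KO 1 (0.0586) or KO 5 (0.0642). Among them are also equal totals (0.116), KO 1 and KO 5 left out together (0.129) and Y-linked libraries alone (0.0652).

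In KO+AAV against WT 0 genes of these chaperone lists passed, where 1.33% of all genes did. The lists of BAG and other nucleotide exchange factors (7 genes), other small heat shock genes (2 tested) and heat shock factors (4 tested) had no gene past the threshold in any of the 4 comparisons. At an unadjusted p under 0.05 the BAG list had 3 genes in KO+AAV against KO and 1 in KO+AAV against WT, the heat shock factors had 2 at 6 weeks and 1 in KO+AAV against KO, and the other small heat shock genes had 0. Of all genes, 29.6% had such a p in KO+AAV against KO, 18.3% in KO+AAV against WT and 15.4% at 6 weeks. Of 14 chaperonin and prefoldin genes 1 rose in KO against WT at 6 months (Cct8, 0.34, adjusted p = 0.0224), where 8.13% of all genes rose. That call was lost without WT 4 (0.0566), KO 1 (0.0515), KO 5 (0.0632) or KO 1 and KO 5 together (0.128) and in Y-linked libraries alone (0.133).

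**Figure D5:**
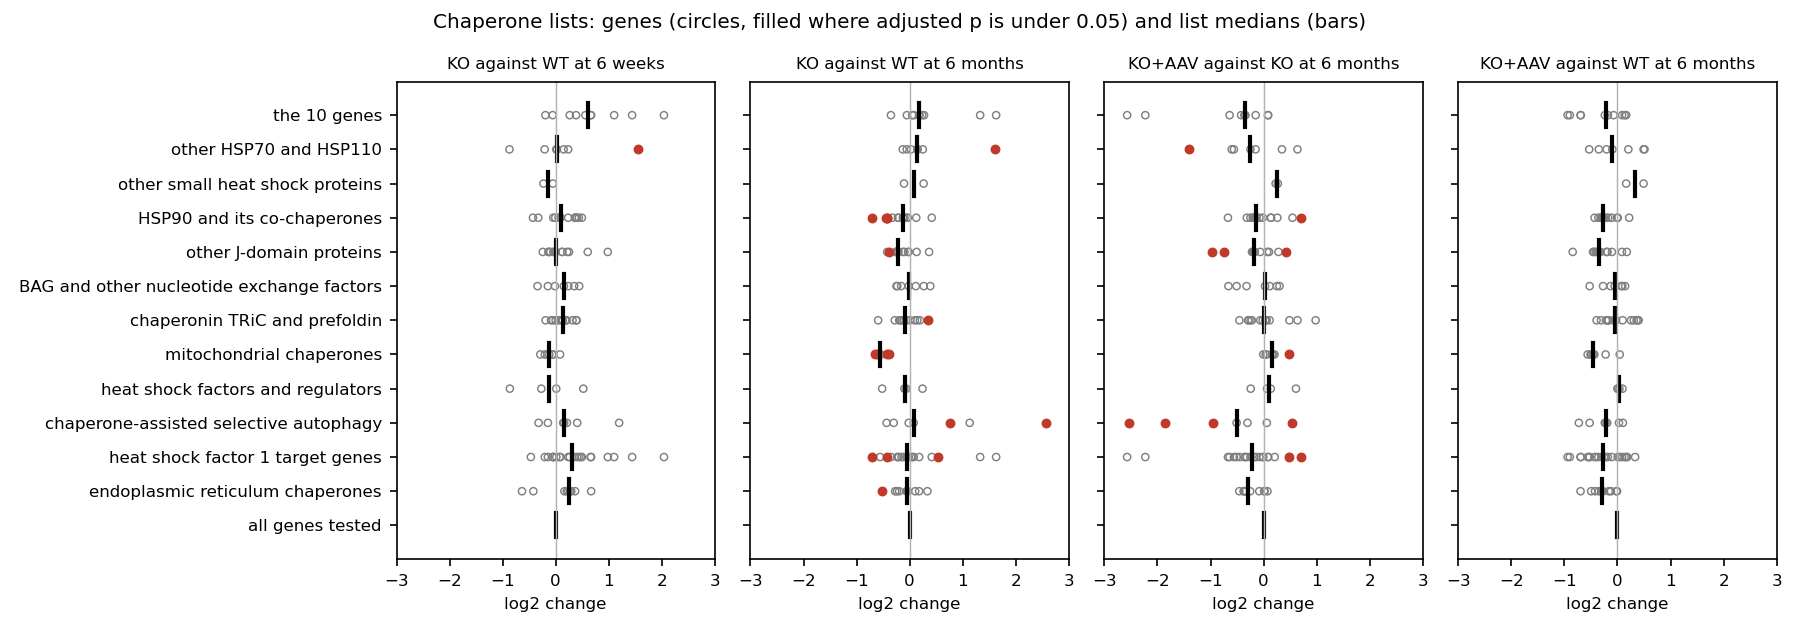
Log2 change (horizontal axes) of each gene of the chaperone lists (circles, filled red where the adjusted p is under 0.05), with the median of each list and of all genes tested as black bars, in the 4 comparisons. The row of the 10 genes holds no filled circle in any comparison, and the filled ones belong to genes of other lists such as Hspa1l, Synpo2l and Fkbp4.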

How the data were processed

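RNA-seq of mouse hearts was analysed from 2 deposited tables, 1 per age. The authors deposited normalised counts per gene (used as a signal, on no fixed scale), on mm10 per the labels. The series text names DESeq2 for the authors' differential expression. The sources used here name no aligner, counter, annotation or strand setting. No column was left unmapped (0), and the 6-week columns carry numbers that the labels do not, so each is known by group only. Low values came out as whole multiples of 1 read for 91% to 94.9% of values at 6 months and 78.2% to 94.5% at 6 weeks (tolerance 0.1), below the 95% required, so count tests were not used.

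Values were tested as log2(value + 1) with limma 3.58.1 (trend, R 4.3.3) where at least 3 libraries at 6 weeks or 4 at 6 months reached 10. The 3 groups at 6 months shared 1 model. P-values were two-sided and adjusted over all genes (Benjamini-Hochberg, threshold 0.05), and a fold on this scale understates changes of low genes. The difference between ages combined both standard errors. Sorbs2 was also tested by exact permutation. Code was tested on simulated data. Python 3.11.15, pandas 2.3.3, numpy 2.4.6 and matplotlib 3.10.9 were used. The 10 genes and all lists were chosen with earlier results of these data known. All 10 genes are named, with up to 3 genes of smallest p per list among those past the threshold and the 3 most alike per gene. Genes named without passing, such as Bag3, Hsf1, Hsp90aa1, Hsp90ab1 and Hspb2, were chosen after their values were seen. Nothing in the labels speaks of litters or batches, so p-values measure the spread between these mice. Other pseudocounts, filters, scalings, covariates, a replicate block and leaving out libraries were tried.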

Additional observations from a re-analysis of the deposited data

Results flagged for a closer look

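Among 75 groups of 4 or 5 hearts examined for a heart far from the others, 9 held one. The rule gives about 1 in 20 groups by chance only for normally distributed values. It was applied to counts on the linear scale, to groups that share hearts and to genes chosen with earlier results known. The 9 can thus not be set against that rate. KO 4 was far above the other KO hearts for Hspa1a (7574.43 normalised counts), Hspa1b (6981.94) and Dnajb1 (1447.81). WT 4 was far above the other WT hearts for Hspa1a (1499.52) and Dnajb1 (1325.73). KO 3 was low for Hspb8 (7623.59). Outside the 10 genes, Hsp90aa1 was high in KO+AAV 2 (8193.91), Fkbp4 in WT 1 (8200.88), and Hsf1 stood apart in KO 5 (474.913).

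The knockout effect differed between ages, by the test of the difference itself, for 3 of 88 other chaperone genes, against 4.08% of all genes. The differences (6 months minus 6 weeks, log2) were 1.59 for Hspa1l, -1.40 for Hspa2 and -0.79 for Ppp5c, a phosphatase that binds HSP90 (limma fits, adjusted p = 0.00975, 0.0273 and 0.0448).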

How the results depend on the processing

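Over the alternatives, 1127 values of the 10 genes kept their direction and side of the threshold, 36 changed sign and 7 newly passed. Genes called at 6 weeks (78) numbered 36 with libraries scaled to equal totals, 12 with no mean-variance trend, 189 with the Xist or Y-linked class as covariate and 7 to 154 when each library was left out. At 6 months 1400 were called in KO against WT without KO 1 and KO 5. Of KO+AAV against KO (1509), 542 were called with the covariate, 332 in Y-linked libraries alone and 568 to 1814 with 1 library left out. In KO+AAV against WT (178) the counts were 101 in the compared groups alone, 44 in Y-linked libraries alone and 108 to 484 with 1 left out. The age difference (518) gave 205 to 585, among them 235 and 263. With equal totals the share of calls that were higher was 75% against 64.1% at 6 weeks, 72.9% against 49.8% in KO against WT, 34% against 49.4% in KO+AAV against KO and 65% against 46.1% in KO+AAV against WT at 6 months. The cause was not tested.

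Of the 10 genes, 0 to 2 were called at 6 weeks with 1 library left out, 1 (Hspb8) in KO against WT with equal totals, 2 (Hspb6 and Hspb8) after quantile normalisation, 1 (Hspb6) in KO+AAV against KO after quantile normalisation, and 0 to 1 for the age difference. The summed HSP70 genes ranged over 1.05 to 2.73 at 6 weeks.

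Signs changed as follows, always without passing the test, and the cause was not tested. Cryab at 6 weeks was 0.034 with equal totals, 0.059 after quantile normalisation and -0.23 to 0.10 with 1 library left out, and Hsph1 there -0.013 to 1.18. In KO against WT at 6 months, Hspa8 was -0.020, Hspb1 -0.16 and Cryab -0.22 without KO 1 and KO 5. Hspb7 was -0.0042 and Dnajb1 0.037 in Y-linked libraries alone, and Hsph1 was 0.11 with equal totals and 0.029 after quantile normalisation. With 1 left out Cryab was -0.054 to 0.15 and Hsph1 -0.19 to 0.044. Cryab in KO+AAV against KO was -0.0023 with the covariate and -0.0059 to 0.19 with 1 left out, and Dnajb1 -0.47 to 0.082. Hspb6 in KO+AAV against WT was 0.0046 with equal totals, 0.035 after quantile normalisation and -0.15 to 0.010 with 1 left out, and Hspb8 -0.017 in Y-linked libraries alone. The age difference with 1 left out was -0.87 to 1.05 for Hspa1b (below 0 also at -0.31, -0.032 and -0.64), -0.36 to 0.053 for Hspa8, -0.23 to 0.093 for Hspb6 (above 0 also at 0.081) and -0.046 to 0.28 for Cryab.

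Like-numbered libraries at 6 months deviated together in 7 of 13 pairs (r over 0.1, range -0.391 to 0.253). Unlike-numbered pairs were not examined, so these values cannot decide whether the numbers pair the libraries. The main fits did not pair them. With a replicate block 2071 genes were called in KO against WT, 1764 in KO+AAV against KO and 183 in KO+AAV against WT, with 0 of the 10 genes in each, and the summed HSP70 genes were at 1.45, -2.41 and -0.96. No paired analysis was possible at 6 weeks because the columns carry no label numbers.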
